A study of Caenorhabditis elegans with 2 samples.

Results

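Summits of ZK546.5 chromatin immunoprecipitation (ChIP-seq) peaks that lay between divergent protein-coding genes are described here. A summit, the position of a peak that the caller reported as its point of enrichment, was a member where it fell between the 5' ends of neighbouring coding genes that point away from each other, with those 5' ends at most 1000 bp apart and no other coding gene between them. Of the 30000 summits in the list called on the pooled reads, 634 met this rule, and they fell in 596 of the 1719 such gaps in the annotation. Of the 634 members, 138 were also in the list that passed the irreproducible discovery rate (IDR), a filter on agreement between replicates. These are called thresholded. The pooled list is labelled as peaks and background for input to IDR, so a sub-threshold summit is not by itself evidence of binding. The thresholded list held 491 peaks, the 491 of highest signal in the pooled list, so the thresholded members are also those above a signal of about 46. Members were chosen by position and annotation, and no measured value entered the rule.

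The chromatin came from whole Caenorhabditis elegans of strain OP231 at the L2 larval stage, with both sexes pooled. The strain carries the unc-119(ed3) III mutation and the transgene wgIs231, from which ZK546.5 is made with GFP and FLAG at its C terminus. The 2 biological replicates share this genotype and form a single group, so no group is compared with another. The control library that the authors used in peak calling was not analysed here. In a whole animal, binding in many cells and strong binding in few cells cannot be told apart.

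Divergent neighbours in C. elegans start transcription in opposite directions from a shared stretch of DNA, so a protein bound there is close to the promoters of both. Some tandem neighbours are by contrast transcribed together as an operon, and many messages are trans-spliced to a leader, which places the annotated 5' end downstream of where transcription began. ZK546.5 has a C2H2 zinc finger, a fold found in many DNA-binding proteins.

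The DNA at strong members is shown first because the same short words recur in it. Each line is read 5' to 3' on the + strand of ce11 (the sequence of RefSeq's WBcel235), reaches 50 bp to either side of the summit without leaving the gap, and carries in capitals ACCGTA (reverse complement TACGGT) and TGCNNATC (reverse complement GATNNGCA), where N is any base. The first 8 lines are the strongest thresholded members on the chromosomes from which sequence is printed here, in order of signal, and the last is the strongest such member below the threshold.
T27E9.2 / ant-1.1 (chrIII:13463061-13463161): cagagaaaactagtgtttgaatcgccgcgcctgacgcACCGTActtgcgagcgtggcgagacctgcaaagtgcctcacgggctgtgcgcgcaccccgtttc
wapl-1 / htz-1 (chrIV:4445864-4445964): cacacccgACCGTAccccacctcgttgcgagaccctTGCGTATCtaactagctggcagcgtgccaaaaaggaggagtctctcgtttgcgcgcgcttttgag
eef-1A.1 / rfc-4 (chrIII:6972049-6972149): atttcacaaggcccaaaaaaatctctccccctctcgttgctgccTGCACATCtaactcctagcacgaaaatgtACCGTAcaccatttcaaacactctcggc
rps-23 / dpm-3 (chrIV:12391281-12391381): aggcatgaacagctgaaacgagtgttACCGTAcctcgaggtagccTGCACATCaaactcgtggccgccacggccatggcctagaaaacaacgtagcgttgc
F01G4.6 / pfd-1 (chrIV:11149738-11149838): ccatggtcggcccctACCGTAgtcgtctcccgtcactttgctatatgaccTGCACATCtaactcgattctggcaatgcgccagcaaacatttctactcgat
rheb-1 / spk-1 (chrIII:9456270-9456370): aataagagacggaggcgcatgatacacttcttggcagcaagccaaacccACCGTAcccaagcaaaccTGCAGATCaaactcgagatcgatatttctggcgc
col-38 / rpl-5 (chrII:8569473-8569573): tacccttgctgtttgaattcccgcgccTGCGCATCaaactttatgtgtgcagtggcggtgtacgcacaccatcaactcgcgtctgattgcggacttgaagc
pbs-1 / K08D12.3 (chrIV:1709900-1710000): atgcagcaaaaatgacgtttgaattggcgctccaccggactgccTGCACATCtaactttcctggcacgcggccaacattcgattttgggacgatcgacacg
hsp-6 / C37H5.5 (chrV:4827167-4827267): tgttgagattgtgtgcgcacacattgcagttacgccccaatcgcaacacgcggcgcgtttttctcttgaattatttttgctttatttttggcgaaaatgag

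The first word, ACCGTA, was in 6 of these 8 thresholded windows and the second, TGCNNATC, in 7 of them, while the window between hsp-6 and C37H5.5 held neither. In all 7 windows with the second word it ran directly into a further NAAC on the same strand, as in the windows of wapl-1 and htz-1 and of rps-23 and dpm-3. Both words were chosen after the sequences and signals had been seen, and the shares that chose them are given further on as description only.

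**Figure D1:**
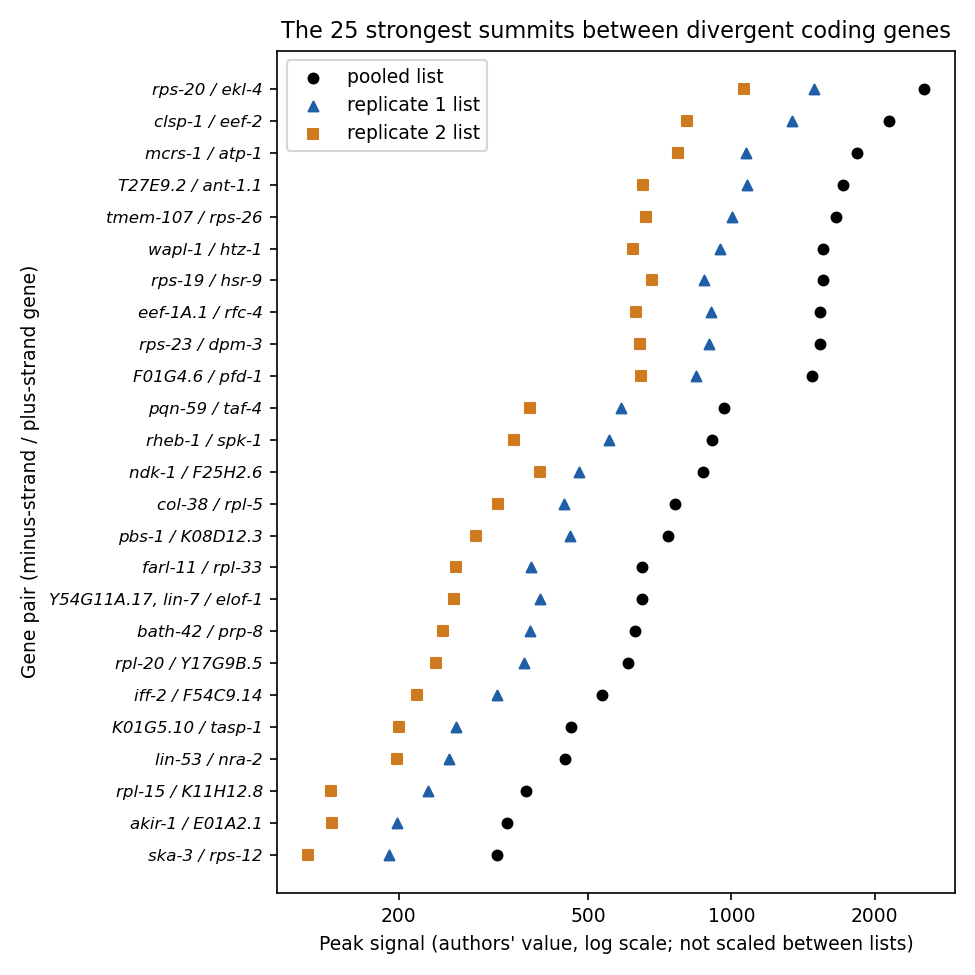
Peak signal (authors' value, log axis) of the 25 strongest members in the pooled list (circles) and at the matching peaks of replicate 1 (triangles) and replicate 2 (squares), 1 row for each gene pair. The lists are not on a shared scale, so the order within a list is the information: rps-20 / ekl-4 led in all 3.

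The signal is the authors' value for each peak, called against the control, and it ranks peaks within a list only. The strongest member (signal 2539, rank 3 in the whole pooled list) lay on chromosome I between ekl-4 and rps-20, which encodes a protein of the small ribosomal subunit. Its summit, at position 14469356, lay 144 bp from the annotated 5' end of ekl-4 and 253 bp from that of rps-20. The signal of this member was 1491 in the list of replicate 1 and 1063 in that of replicate 2, and it ranked 3 in both. The next was between clsp-1, the claspin gene of the replication checkpoint, and eef-2, translation elongation factor 2, with signals of 2148 in the pooled list, 1342 in replicate 1 and 806 in replicate 2. Its summit, at position 9163518, lay 13 bp from the annotated 5' end of eef-2 and 252 bp from that of clsp-1. Between mcrs-1 and atp-1, the alpha subunit of the ATP synthase, the signal was 1840 in the pooled list, 1075 in replicate 1 and 772 in replicate 2, with the summit at position 12652269, 8 bp from the 5' end of atp-1. These summits were thus among the 10 strongest of all 30000, and all were on chromosome I.

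Of the following 7 members, those at ant-1.1 (the ADP/ATP carrier, with T27E9.2), rps-26 (with tmem-107), htz-1 (the histone variant H2A.Z, with wapl-1, a cohesin release factor), rps-19 (with hsr-9), eef-1A.1 (elongation factor 1 alpha, with rfc-4 of the replication clamp loader), rps-23 (with dpm-3) and pfd-1 (prefoldin, with F01G4.6) had pooled signals of 1478 to 1715. Except at ant-1.1 (52 bp, against 527 bp from T27E9.2), the summit lay nearer the partner given in brackets, as at tmem-107 (68 bp, against 389 bp from rps-26). In replicate 1 these members had signals of 841 to 1078 and in replicate 2 of 621 to 682. They ranked 10 to 18 and 12 to 18 in those lists. A gap followed: the next member, between pqn-59 and taf-4 (a subunit of the general factor TFIID), had 966 in the pooled list, 587 in replicate 1 and 378 in replicate 2. Below it came rheb-1, the GTPase that activates TOR, with spk-1, an SR protein kinase (910), ndk-1, a nucleoside diphosphate kinase, with F25H2.6 (873), col-38 with rpl-5 (762), and the proteasome subunit gene pbs-1 with K08D12.3 (734). The pairs farl-11 with rpl-33 (650), Y54G11A.17 and lin-7 with elof-1 (647), bath-42 with the splicing factor gene prp-8 (627), rpl-20 with Y17G9B.5 (606) and iff-2, an eIF5A gene, with F54C9.14 (533) closed the 20 members above a signal of 500. The last of the 25 strongest were K01G5.10 with tasp-1 (461), the histone chaperone gene lin-53 with nra-2 (448), rpl-15 with K11H12.8 (371), akir-1 with E01A2.1 (338) and ska-3 with rps-12 (321).

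Members made up 28.1% of the thresholded peaks and 37.7% of their summed signal. They were 10 of the 20 strongest peaks, 24 of the 50 strongest and 20 of the 40 above a signal of 500. Most thresholded members were weak, however: 32 had a signal between 100 and 500, and 86 were at or below 100. The median signal of thresholded members was 76.2 (95% interval 70.5 to 91.8, n = 138), against 74.6 (70.3 to 81.1, n = 353) for the other thresholded summits, so the medians did not differ beyond their intervals.

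A summit between close divergent genes was thresholded more often than a summit elsewhere. Of the 634 members, 138 were thresholded, or 21.8% (exact Clopper-Pearson 95% interval 18.6 to 25.2), against 353 of the 29366 other pooled summits, or 1.20% (1.08 to 1.33). The share over all 30000 summits was 1.64%. In tandem gaps of up to the same length, between neighbouring coding genes that point the same way, 84 of 1019 summits were thresholded, a share of 8.24% (6.63 to 10.1). In head-to-head gaps longer than the limit it was 2.48% (92 of 3715), in tail-to-tail gaps up to the limit 2.92% (7 of 240) and inside coding genes 0.517% (95 of 18382). The intervals of the members and of each of these classes did not overlap. Peaks within a list are not independent replicates and the intervals cover counting error only, so no p-value is attached to them.

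Counted over gaps rather than summits, 138 of the 1719 head-to-head pairs held a thresholded summit, a share of 8.03% (6.79 to 9.41). Of the 5548 tandem gaps of up to 1000 bp, 83 held one, or 1.50% (1.19 to 1.85). A gap with any pooled summit was also more frequent among head-to-head pairs, at 34.7%, than among tandem gaps, at 17.5%. Per length of DNA, thresholded summits numbered 163 per Mb of head-to-head gap and 37.2 per Mb of tandem gap. The median gap was 475 bp in head-to-head pairs and 357 bp in tandem ones, and tandem gaps within operons were not set apart here. Among pairs with a summit, 559 had 1, 36 had 2 and 1 had 3, and no pair had more than 1 thresholded summit.

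**Figure D2:**
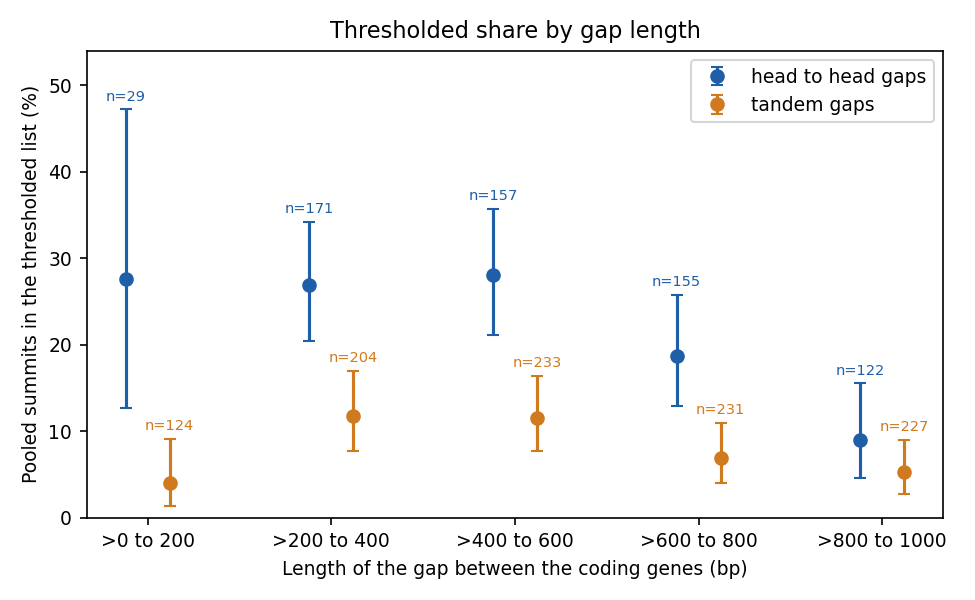
Share of pooled summits in the thresholded list (y axis, percent) by the length of the gap between the coding genes (x axis, bp), for head-to-head gaps (left of each pair of points) and tandem gaps (right). Points are shares, bars exact 95% intervals and n the number of summits. The head-to-head share lay between 26.9% and 28.0% up to 600 bp and was 9.02% above 800 bp.

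The thresholded share of summits was lower in the longest gaps. It was 27.6% (8 of 29) in head-to-head gaps of up to 200 bp, 26.9% (46 of 171) above 200 and up to 400 bp and 28.0% (44 of 157) above 400 and up to 600 bp. It was 18.7% (29 of 155) up to 800 bp and 9.02% (11 of 122) up to 1000 bp. In tandem gaps of these lengths the shares were 4.03%, 11.8%, 11.6%, 6.93% and 5.29%. The intervals of the head-to-head and tandem shares were apart in every bin up to 800 bp, and overlapped in the longest bin, where 4.59% to 15.6% in head-to-head gaps stood against 2.76% to 9.05% in tandem gaps. Counted over pairs, with or without a summit, the order was another: a thresholded summit was in 3.25% (1.41 to 6.31) of the pairs up to 200 bp apart, then in 9.81%, 11.2% and 8.41%, and in 4.14% (2.08 to 7.28) of those above 800 bp. At matched distance from the nearest 5' end that faces the gap, the head-to-head share was 21.1% within 100 bp (tandem 4.13%), 22.6% from there to 200 bp (tandem 10.8%) and 26.5% from there to 300 bp (tandem 16.8%). The intervals were apart in the bins up to 200 bp, and overlapped between 200 and 300 bp, at 18.8% to 35.5% for head-to-head and 11.8% to 22.8% for tandem summits. They also overlapped between 300 and 400 bp (13.5% for head-to-head, 9.02% for tandem summits) and between 400 and 500 bp (11.1% and 3.85%).

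The gaps of thresholded members were of a median 476 bp (quartiles 310 and 620) against 588 bp (375 and 774) for sub-threshold members, and a median of 475 bp over all pairs. The shortest gap with a thresholded summit, 92 bp between ears-2, a glutamyl-tRNA synthetase gene, and uncp-18, had a signal of 76.4 in the pooled list, 39.7 in replicate 1 and 29.3 in replicate 2. Next in length were T26A8.4 with pdtf-1 (145 bp, signal 234.7) and imb-1, an importin beta gene, with mfsd-13.1 (149 bp, signal 60.6). The longest were bath-42 with prp-8 (990 bp, signal 627), larp-1 with wip-1 (989 bp, signal 97.7) and the vesicle GTPase gene rab-11.1 with rpl-7 (981 bp, signal 76.1).

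**Figure D3:**
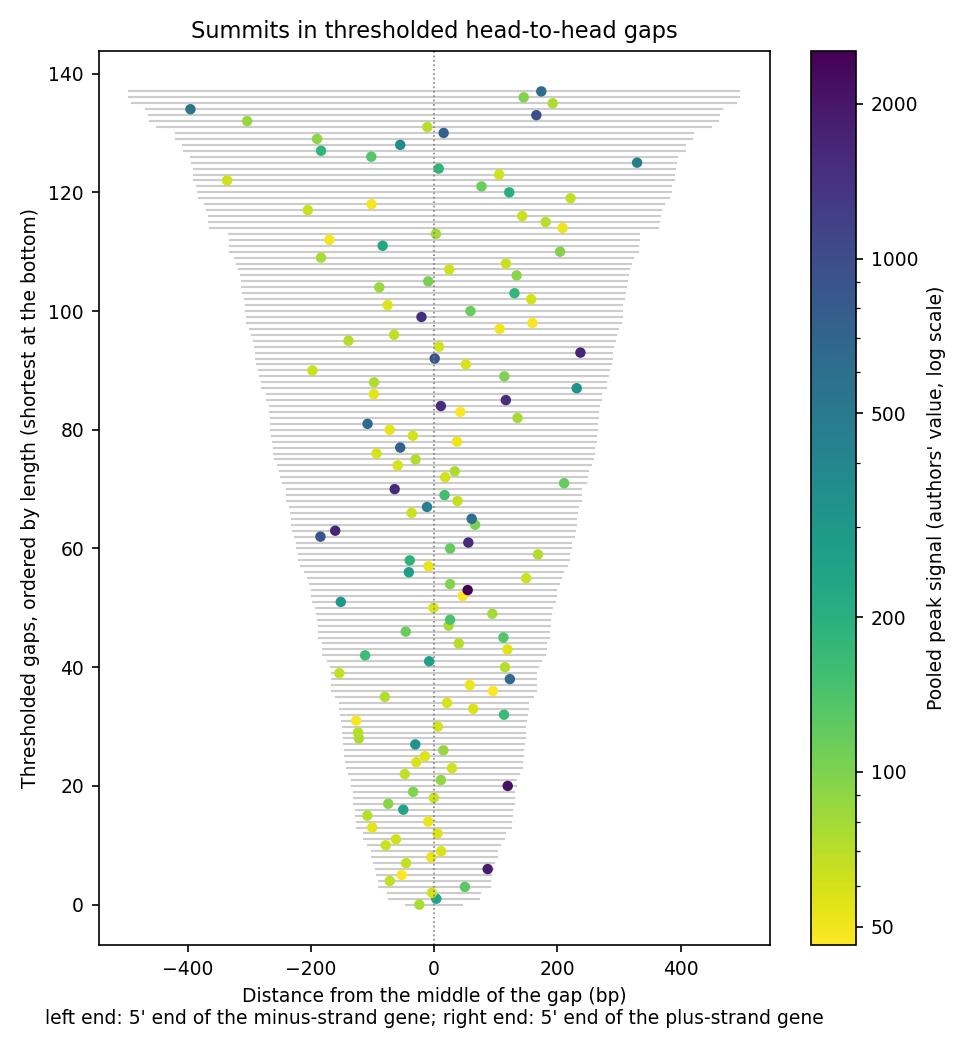
Position of the summit in each of the 138 thresholded gaps. The x axis is distance from the middle of the gap in bp, each grey line is a gap from the 5' end of the minus-strand gene (left) to that of the plus-strand gene (right), gaps are stacked by length and colour gives pooled signal on a log scale. Summits lay on both sides of the middle, with 66 nearer the minus-strand gene and 72 nearer the plus-strand gene.

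Within the gap, thresholded summits tended to the middle but many were close to either gene. On a scale where the middle is 0% and either 5' end is 100%, the median summit lay at 33.0% (95% interval 25.8 to 39.4), against 39.8% (35.5 to 44.0) for sub-threshold members, and these intervals overlapped. The middle 50% of the gap held 94 of 138 thresholded summits, or 68.1%, and 300 of 496 sub-threshold summits, or 60.5%, with overlapping intervals of 59.6% to 75.8% and 56.0% to 64.8%. The median distance to the nearest 5' end was 156 bp (132 to 168) for thresholded members and 139 bp (130 to 150) for the others. Strong summits did not share a position: those at rps-23 and dpm-3 (278 and 256 bp) and at rheb-1 and spk-1 (290 and 288 bp) were nearly midway, whereas those at clsp-1 and eef-2, mcrs-1 and atp-1, and T27E9.2 and ant-1.1 (527 and 52 bp) lay beside the second gene. In the pooled list 99.6% of summits, and in the thresholded list 77.2%, were listed at 50% of the width of the peak, so a position of a weak summit is in most cases that of the centre of its peak.

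Both replicates located the thresholded members. A summit of replicate 1 lay within 100 bp of all 138, and a summit of replicate 2 within 100 bp of 137, at median distances of 7 and 10 bp. The exception in replicate 2 was the summit between dnj-29 and ndua-2 (signal 53.1 in the pooled list and 32.9 in replicate 1). Of the 496 sub-threshold members, 142, or 28.6% (24.7 to 32.8), had a summit in both lists and 99 in neither. Of the thresholded members, 122 were among the 491 strongest peaks of replicate 1 and 119 among those of replicate 2. Across the 137 thresholded members found in both, Spearman's rho between the signals of replicate 1 and replicate 2 was 0.788, and across the 142 sub-threshold members 0.249. IDR rests on agreement between replicates, and both lists share the control, so these values describe the lists and carry no p. Because the thresholded list is also the 491 pooled peaks of highest signal, a place in it does not show that a given member agreed between replicates. The 491 strongest peaks of each replicate were also taken in place of the thresholded list. Of the summits in head-to-head gaps, 128 of 479 were among them in replicate 1 (26.7%) and 130 of 590 in replicate 2 (22.03%). The whole lists held 19076 peaks in replicate 1 and 30000 in replicate 2. The 491 are thus a larger part of the first list, and the shares are not on a like base.

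The ranks differed most at 3 weak members, all higher in replicate 1. At Y53F4B.9 with Y53F4B.11 the signal was 51.8 in the pooled list, 43.2 in replicate 1 and 6.31 in replicate 2, ranking 260 in replicate 1 and 26582 in replicate 2. At the pair of Y105C5A.1272 it was 50.7, 37.5 and 7.64 in these lists, with ranks of 338 and 17429 in the replicates. At rps-13 with nfx-1 it was 58.2, 42.5 and 9.74, with ranks of 271 and 8485. All 3 were among the 491 strongest peaks of replicate 1 and far below them in replicate 2.

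Around the threshold the signal formed no step. The weakest thresholded members were mdf-2, a spindle checkpoint gene, with nduv-3 (45.96), the chaperonin gene cct-6 with alh-9 (46.3) and ift-43 with mdt-26 (47.0). The strongest below it were supr-1 with dnj-28 (45.8), hsp-6, the mitochondrial HSP70 gene, with C37H5.5 (45.5) and metl-1 with W02B12.11 (45.4). In the replicate lists mdf-2 with nduv-3 had signals of 25.5 in replicate 1 and 21.8 in replicate 2, and supr-1 with dnj-28 had 25.9 and 21.9. At the limit on the gap, the summits nearest it on the inside had signals of 27.9 (B0495.9 with sre-1, 994 bp), 13.7 (nol-6 with Y51H7C.3, 991 bp) and 14.2 (clec-83 with clec-84, 990 bp), all below the threshold, and that of bath-42 with prp-8, also 990 bp, had 627. The nearest outside, in gaps of 1003 to 1005 bp, had 12.7 to 14.3.

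**Figure D4:**
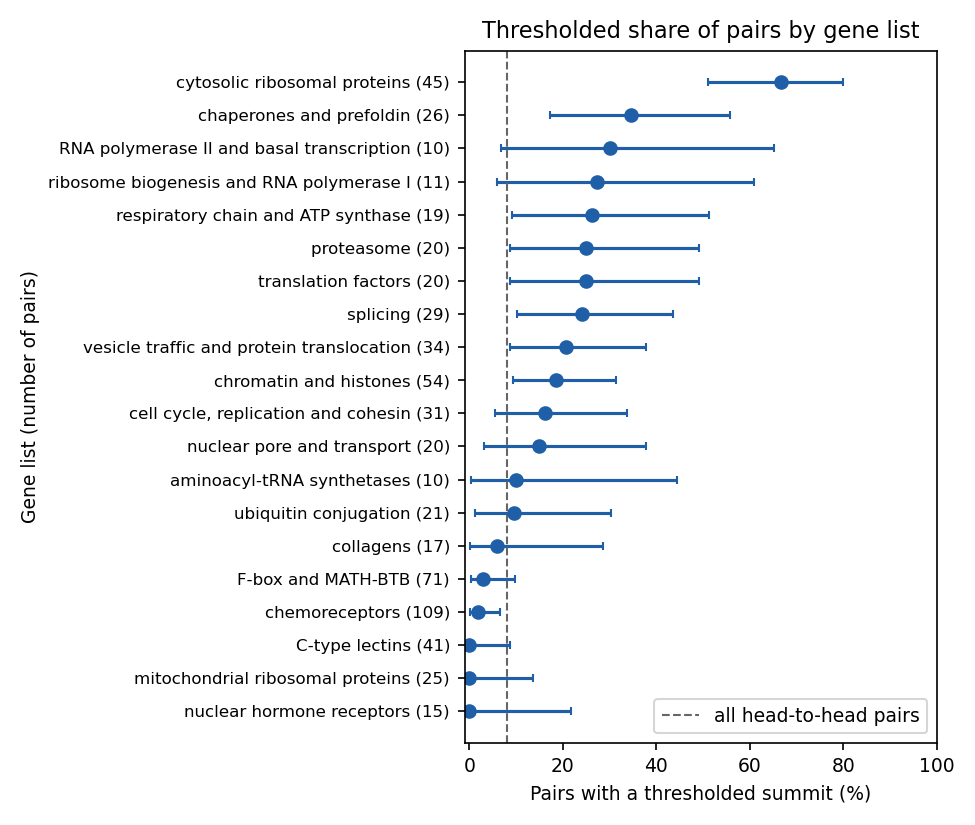
Share of head-to-head pairs with a thresholded summit (x axis, percent) for the gene lists with at least 10 pairs (rows, number of pairs in brackets). Points are shares, bars exact 95% intervals and the dashed line the share over all pairs, 8.03%. Pairs with a cytosolic ribosomal protein gene stood highest at 66.7%.

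Cytosolic ribosomal protein genes took part in 45 head-to-head pairs, and 30 of these held a thresholded summit, or 66.7% (51.0 to 80.0), with a median signal of 161. The share over all 1719 pairs was 8.03%. The leading ribosomal pairs were rps-20, rps-26 and rps-19 with the neighbours given above, and 3 thresholded pairs joined 2 ribosomal genes. In the other 27 the summit was nearer the ribosomal gene in 10 and nearer the partner in 17, at median distances of 297 bp from the ribosomal gene and 179 bp from the partner over the list. Mitochondrial ribosomal protein genes, whose products work in the organelle, took part in 25 pairs, and 15 of these held a pooled summit but none a thresholded one (0 of 25, 95% upper bound 13.7%). Translation factor genes had 5 of 20 pairs thresholded (25%, 8.66 to 49.1), led by eef-2, eef-1A.1 and iff-2, and the summit was nearer the factor gene in 4 of the 5. Among ribosome biogenesis genes 3 of 11 pairs were thresholded (27.3%, 6.02 to 60.97), all weakly: fib-1 (fibrillarin) with mut-15 had 73.3, zip-4 with nol-58 had 65.4 and T23F6.3 with rbd-1 had 62.7.

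Pairs without a cytosolic ribosomal gene still differed from tandem gaps. Of 589 summits in such head-to-head pairs 108 were thresholded, or 18.3% (15.3 to 21.7), against 72 of 998, or 7.21% (5.69 to 8.999), in tandem gaps whose downstream gene was not a cytosolic ribosomal gene. Where a ribosomal gene was present, 30 of 45 summits were thresholded in head-to-head pairs (66.7%) and 12 of 21 in tandem gaps upstream of the gene (57.1%, 34.0 to 78.2), with overlapping intervals. This split was chosen after the values had been seen.

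Chaperone and prefoldin genes had 9 of 26 pairs thresholded (34.6%, 17.2 to 55.7), among them pfd-1, cct-1 of the chaperonin with mig-5 (signal 276) and hsp-60, the mitochondrial chaperonin gene, with Y22D7AL.10 (188), and the summit was nearer the partner in 7 of the 9. Proteasome genes had 5 of 20 (25%), with an interval of 8.66% to 49.1%, led by pbs-1, rpn-3 with hsp-110 (121) and pbs-2 with eif-6 (79.7). Ubiquitin conjugation genes had 2 of 21 (9.52%, 1.17 to 30.4), ubq-2 with frg-1 (63.2) and uev-1 with F39B2.3 (51.8). The respiratory chain and ATP synthase list had 5 of 19 (26.3%, 9.15 to 51.2), in each case with the summit nearer the listed gene. Within it atp-1 stood far above nuo-1 with rpl-36.A (61.4) and cox-14 with rde-4 (60.3). The list was matched on gene names and left out other respiratory genes. Some were in thresholded pairs, such as ndua-8 with rbc-2 (116), ndub-8 with cup-14 (92.8) and nduv-3 with mdf-2 (45.96). Others were not, such as sdhb-1 with cup-15 (14.9). At nduv-3 the summit was nearer mdf-2 (40 bp, against 145 bp). Vacuolar ATPase genes had 2 of 6 (33.3%, 4.33 to 77.7), vha-8 with C17H12.2 (72.1) and vha-1 with sqv-3 (70.4). The 8.03% over all pairs lay within the intervals of the ubiquitin and vacuolar ATPase lists. It lay below those of the chaperone, proteasome and respiratory lists.

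Of the 10 pairs with a gene of RNA polymerase II or its general factors, 3 were thresholded (30%, 6.67 to 65.2), among them taf-4, rpb-3 with pas-4 (66.5) and mdt-26 with ift-43 (47.0). Splicing genes had 7 of 29 pairs thresholded (24.1%, 10.3 to 43.5), led by prp-8, snr-3 with rsp-5 (100.4) and prp-40 with clu-1 (60.9). The chromatin and histone list had 10 of 54 (18.5%, 9.25 to 31.4), with htz-1 and lin-53 as the strongest within it. Matched on names, it left out other chromatin genes, among them ekl-4 with rps-20 (2539) and dot-1.1 with zwl-1 (63.7). It also left out sub-threshold ones, such as nurf-1 with kbp-3 (22.4). The cell cycle, replication and cohesin list had 5 of 31 (16.1%, 5.45 to 33.7), with wapl-1, rfc-4 and cdc-6, a replication licensing gene (80.1). It left out the checkpoint genes clsp-1 (2148, with eef-2) and mdf-2 (45.96, with nduv-3). The sub-threshold pair of san-1, another such gene, with ZC328.5 (25.5) was left out too. Nuclear pore and transport genes had 3 of 20 (15%, 3.21 to 37.9), led by npp-3 with the topoisomerase gene top-2 (163). Vesicle traffic and translocation genes had 7 of 34 (20.6%, 8.70 to 37.9), led by sec-61.B, a translocon subunit gene, with trap-3 (114) and vps-15 with hmg-12 (98.6). The share over all pairs, 8.03%, lay within the intervals of the polymerase II, cell cycle and nuclear pore lists and below those of the splicing, chromatin and vesicle lists.

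Of the large gene families, only the chemoreceptors had an interval wholly below the 8.03% over all pairs. Chemoreceptor genes, expressed in sensory neurons, took part in 109 pairs, of which 2 were thresholded (1.83%, 0.223 to 6.47), the stronger at sri-5 with rsr-1 (63.0). F-box and MATH-BTB genes had 2 of 71 (2.82%, 0.343 to 9.81), collagen genes 1 of 17 (5.88%, 0.149 to 28.7, col-38 with rpl-5), C-type lectin genes 0 of 41 (upper bound 8.60%) and nuclear hormone receptor genes 0 of 15 (upper bound 21.8%), and these intervals all hold the overall share. A pooled summit of any strength was in 21 of the 109 chemoreceptor pairs and 7 of the 41 lectin pairs, against 596 of all 1719. Over all lists 88 of 602 pairs with a listed gene were thresholded (14.6%), against 50 of 1117 with none (4.48%). The lists were matched on gene names and are incomplete. Pairs with no listed gene thus include genes of the same categories, such as ndua-8 with rbc-2 and nurf-1 with kbp-3. Neighbours share a peak, so a listed gene is counted with whichever gene stands opposite it, and the peak does not show which of them, or whether both, it belongs to.

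Members were unevenly spread over the 6 chromosomes. On chromosome I 41 of 149 members were thresholded (27.5%), on III 35 of 135 (25.9%), on IV 26 of 103 (25.2%) and on II 22 of 111 (19.8%). On V 12 of 123 were (9.76%, 5.14 to 16.4), below the interval of chromosome I (20.5 to 35.4), and on X 2 of 13. The X chromosome held 79 of the 1719 pairs. Over all pooled summits the share was also lower on V (0.840%) and X (1.04%) than on I (2.37%).

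**Figure D5:**
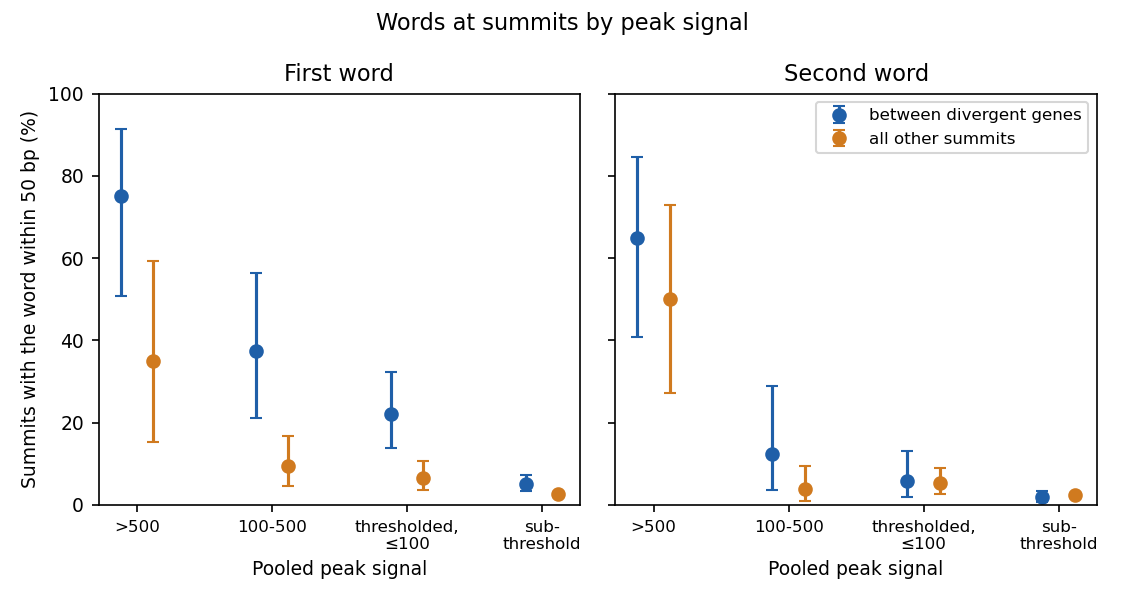
Share of summits with the first word, ACCGTA (left panel), and the second word, TGCNNATC (right panel), on either strand within 50 bp (y axis, percent), by band of pooled peak signal (x axis). Members stand left of all other summits in each band, with exact 95% intervals. Both words were most frequent above a signal of 500, and the words were chosen on the members plotted here.

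The 2 words shown above were followed through the signal bands and into summits that had no part in choosing them. ACCGTA was the 6-base word whose share differed most between thresholded members (46 of 138, 33.3%) and sub-threshold members (25 of 496, 5.04%). It was in 86 of 1719 windows of the same length at the middle of all head-to-head gaps (5.003%) and in 884 of all 30000 pooled windows (2.95%). TGCNNATC was noticed by eye in the strongest windows, and then ranked first in a search of all words of 3 letters, 1 to 6 free bases and 3 letters that compared the 25 strongest members (14 with the word) with sub-threshold members (9 of 496, 1.81%). These differences chose the words and give no independent support for them. Among weaker thresholded members, the second word was in 4 of 32 with signals of 100 to 500 and 5 of 86 at or below 100, and 5 of the 25 strongest members are in the first of these bands.

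The other pooled summits did not enter either search, and their shares are a separate description. Above a signal of 500, ACCGTA was within 50 bp of 15 of 20 members and 7 of 20 other summits, and TGCNNATC of 13 of 20 members and 10 of 20 other summits. At signals of 100 to 500, ACCGTA was at 12 of 32 members (37.5%) and 10 of 106 other summits (9.43%). The intervals were 21.1% to 56.3% and 4.62% to 16.7%. In tandem gaps of up to 1000 bp, ACCGTA was at 4 of 10 summits above 500 (40%, 12.2 to 73.8) and 3 of 21 at 100 to 500 (14.3%, 3.05 to 36.3). Among thresholded summits at or below 100 it was at 7 of 53 tandem ones (13.2%, 5.48 to 25.3) and 19 of 86 members (22.1%, 13.9 to 32.3). In each of these bands the tandem interval overlapped that of the members. Below the threshold, ACCGTA was at 781 of 29013 other summits (2.69%) and TGCNNATC at 706 (2.43%). Both words were at 10 of 20 members and 2 of 20 other summits above 500. Of the 14 thresholded members with both, 12 carried them on the same strand, and in 9 of these ACCGTA came first, with 13 to 35 bp from start to start (median 18 bp). The median distance from the summit was 12.5 bp for ACCGTA and 14.5 bp for TGCNNATC.

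The second word followed directly by NAAC was rare, and most of its occurrences in head-to-head gaps were at a thresholded summit. It occurred 711 times on either strand of the 6 chromosomes, and 20 of these lay in head-to-head gaps of up to 1000 bp, in 20 different gaps. A thresholded summit was within 50 bp of 15 of the 20 (75%), against 8 of the 691 elsewhere (1.16%), of which 1 was at the eef-2 summit, where the word spans the annotated 5' end of that gene. Most of the 15 were at the 25 strongest members, on which the second word was ranked, so the 75% gives no independent support. Those outside the 25 were at gtbp-1 with K08F4.3 (signal 167), vps-15 with hmg-12 (98.6), copa-1 with gst-43 (62.3) and Y37E3.8 with phb-1 (48.7). The occurrences elsewhere cover all other sequence and were not matched to gaps of this kind. At the remaining 5, 4 gaps (Y47G6A.25 with inx-22, cey-3 with rmh-1, gtf-2H3 with ham-3 and C10A4.13 with C10A4.10) held no pooled summit and that of zhp-2 with lotr-1 held one of 12.9. Among pooled summits, this longer form was within 50 bp of 15 of 138 thresholded members, of 0 of 496 sub-threshold members and of 22 of the 29366 others. These 15 members are not the same set as the 15 occurrences in gaps. They include the member at eef-2 and leave out that at gtbp-1, where the second word alone was counted in the window. The 4 added bases were chosen on the same sequences, and a match is a description of the letters and not of a bound site.

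Base composition moved with the threshold. The window at the summit had a median GC content of 48.5% (47.5 to 50.5) at thresholded members and 36.6% (34.7 to 37.6) at sub-threshold members, against 48.5% at other thresholded summits and 32.7% at other sub-threshold ones. Members above a signal of 500 had a median of 52.5%. The part of base composition in the shares of words and of thresholded summits was not tested.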

How the data were processed

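Per the records the submitters deposited with the lists, the authors called ChIP-seq peaks on each of 2 replicates and on both pooled, against a control, and derived a thresholded list by IDR. Which aligner and peak caller were used, and the read depth, is not stated in the records used here. The authors' signal, deposited for each peak, is not scaled between lists. The score deposited by the authors was read only for its range, from -0.0412 to 1.85 in the pooled list.

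The ce11 lists held 30000 pooled, 491 thresholded, 19076 replicate 1 and 30000 replicate 2 peaks. Genes were the 19985 coding records of Ensembl for WBcel235. Shares have exact Clopper-Pearson and medians binomial order-statistic intervals at 95%, for counting error only. With 1 group no test over samples was possible. Members and 24 gene lists were chosen with earlier results of these data known. The lists were matched on gene names and do not hold every gene of their category. The tandem comparison, signal bands and both words were chosen after values had been seen: 6-base, 8-base and spaced words and 20 fixed motifs were searched within 50 bp of summits on both strands, and several spellings of the second word were tried by hand. Named pairs are the 25 strongest, up to 3 per list, the extremes of gap and of replicate rank, and those nearest the threshold and the limit. Of the pairs of the rule, 2 are not reported here, and the pairs named for the longer word, for non-coding genes or for absence from a replicate were picked after their values were seen. Alternatives covered the limit on the gap, the source of 5' ends, the summit or midpoint, other gene types in the gap, the stronger peaks and each replicate alone. Pair finding and word counting were tested on simulated data. Python 3.11.15, pandas 2.3.3, NumPy 2.4.6, SciPy 1.17.1 and matplotlib 3.10.9 were used.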

Additional observations from a re-analysis of the deposited data

How the results depend on the processing

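Of 43 alternative values, 32 stayed within the interval of the reported value and 11 moved. The thresholded share of members was 27.3% with 5' ends at most 500 bp apart and 16.6% with a limit of 2 kb. It was 11.2% with the part of the thresholded list above its median signal, and 18.3% without pairs of cytosolic ribosomal genes. With either replicate left out and the strongest 491 peaks of the other used, it ran from 22.03% to 26.7%. The higher value came from the shorter list, that of replicate 1. The share of pairs was 4.13% and the median signal 184.7 for the stronger part of the list, by construction, and the share of pairs 6.45% without ribosomal pairs. With the tighter match of 50 bp, 94.2% of thresholded members were recovered in replicate 1 and 93.5% in replicate 2, and with 200 bp 100% in both. The peak's midpoint, transcript 5' ends, the innermost start of each gene, and gaps with no other 5' end left each of the 4 results on shares, signal and position within its interval, as did a 100 bp window the share with ACCGTA. The innermost start and the ribosomal exclusion were added after seeing the data. The median signal without a replicate was not computed, since replicate lists are on other scales. No paired analysis was possible because the replicates form a single group. Depth is unknown, so an absent summit says only that none was called.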

Other observations

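The 5' end of a non-coding gene lay in the gap of 25 of 138 thresholded members (18.1%, 12.1 to 25.6) and of 47 of 496 sub-threshold members (9.48%, 7.05 to 12.4). Of all 1719 gaps, 135 held one (7.85%, 6.63 to 9.23). The intervals of the first pair overlap slightly, and the difference was not tested. Most of these were of the annotation's ncRNA type, at 23 thresholded and 34 sub-threshold members, as in the gaps of pfd-1, rpl-5, rps-1 with ifet-1 (signal 202) and cct-8 with Y55F3AR.2 (185). A miRNA gene started between eef-1A.1 and rfc-4 and a snoRNA gene between attf-2 and F09G2.2 (60.2). Piwi-interacting RNA genes started in the gaps of 1 thresholded and 10 sub-threshold members.

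Among the 20 fixed motifs, the TATA box (TATAAA, reverse TTTATA) was within 50 bp of 3 of 138 thresholded members (2.17%, 0.451 to 6.22), against 59 of 496 sub-threshold members (11.9%, 9.18 to 15.1) and 13.96% of windows at the middle of all head-to-head gaps. The GAGA repeat (GAGAGA, reverse TCTCTC) was at 15 thresholded members (10.9%, 6.21 to 17.3), against 88 of 353 other thresholded summits (24.9%, 20.5 to 29.8), and at 6.02% of all pooled summits. The word TGCGCA, its own reverse complement, was at 13 thresholded members (9.42%) against 14 sub-threshold ones (2.82%), and at 1.05% of all pooled summits. After ACCGTA the next 6-base word by difference of share was CGAGAC (reverse GTCTCG), at 40 of 138 thresholded members (29.0%) against 27 of 496 sub-threshold ones (5.44%). It was at 5 of the 25 strongest, against 18 of 25 for ACCGTA, and at 57 of 353 other thresholded summits (16.1%). TATAAA was at 6.23% (3.95 to 9.28) of other thresholded summits, and GAGAGA at 11.9% of sub-threshold members. At thresholded summits in tandem gaps of up to 1000 bp, TATAAA was at 7.14%, GAGAGA at 11.9%, TGCGCA at 13.1% and CGAGAC at 21.4%. For each of these words the tandem interval overlapped that of thresholded members, so these shares do not set divergent gaps apart from short tandem ones. GC content differs between these sets as given above, and its part was not tested.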
